A study of Rattus norvegicus with 20 samples.

Results

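The complement genes described here are 9 rows of the deposited gene counts, chosen by symbol from the 32495 rows that carry a gene name. They encode the recognition subunits C1qa, C1qb and C1qc, the proteases C1r and C1s, the central component C3, the C1 inhibitor Serping1, the anaphylatoxin receptor C3ar1 and the membrane regulator Cd59. Each was read in gastrocnemius muscle of female Fischer 344 rats bearing the Ward colorectal carcinoma. TUMOUR STD rats (5 libraries) ate a standard diet and received no chemotherapy. CHEMO STD rats (7 libraries) ate the same diet and were given repeated cycles of CPT-11 (irinotecan) followed by 5-FU (5-fluorouracil). CHEMO FO rats (8 libraries) received the same drugs and were moved to a diet with fish oil, a source of EPA and DHA, when chemotherapy began. All 3 groups carried tumours, so no group shows muscle without one, and the 1 strain and 1 sex limit the model.

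Complement is a cascade of plasma and tissue proteins that tags cells and debris for removal. In the classical pathway, C1q binds its target and activates the paired proteases C1r and C1s, which cleave C4 and C2 to build an enzyme that splits C3. Macrophages are a main source of C1q, fibroblasts and other stromal cells make C1r, C1s and C1 inhibitor, and the liver supplies most circulating C3. Cells protect themselves with inhibitors, among them Cd59, which blocks the last step, the membrane attack complex. In whole muscle RNA, fewer cells of a type and less RNA per cell cannot be told apart.

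Counts on named genes ranged from 3020821 to 10857477 per library. CHEMO STD replicates 1 and 2 differed by more than counting noise, for which chi-square per gene is about 1, but at 2.23 they were far closer than the 58 other pairs of libraries within groups (13.7 to 255). They were counted as 1 sample, leaving 19 samples (n = 5, 6 and 8). Levels are given as CPM, the counts scaled to a common library size after TMM normalisation. The skeletal muscle genes measured (7, led by Myh4, Acta1 and Ckm) summed to 122285 to 245724 CPM, and their lowest sum was in CHEMO FO replicate 18. This library stood apart. It held the highest level of any sample in 2185 of the 11716 genes tested, and in 192 genes its level was over 2 times that of every other sample. TUMOUR STD replicate 10 held skin keratinocyte markers at a summed 523 CPM, against 111 CPM in CHEMO FO replicate 16 and at most 8.07 CPM elsewhere. CHEMO STD replicate 7 held T cell, B cell and neutrophil markers at 106 CPM, against at most 30.3 CPM elsewhere.

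The question put to these genes was whether chemotherapy, or fish oil given with it, moved complement transcripts in muscle. For all 9, the groups overlapped in the chemotherapy effect (CHEMO STD versus TUMOUR STD), in the diet effect (CHEMO FO versus CHEMO STD) and in CHEMO FO against TUMOUR STD. Among all tested genes, 0.495%, 0.0683% and 0.324% had groups that did not overlap in these comparisons. A gene counts as called here when edgeR's quasi-likelihood test gave an unadjusted p under 0.05 and the change was 1.5-fold or more. In the chemotherapy effect 0 of the 9 were called, against 2.38% of all genes (0.93% higher and 1.45% lower). At the unadjusted p alone, Cd59 was the 1 of these 9 that passed, against 6.5% of all genes. DESeq2 called 1 of the 9, C3. Of the 9, the 1 called in the diet effect was C3, which was higher, against 1.66% of all genes (0.615% higher and 1.05% lower). It was also the 1 that passed the unadjusted p, against 4.51%. C3 was again the 1 gene called, and higher, in CHEMO FO against TUMOUR STD, where 3.6% of all genes were called (1.09% higher and 2.51% lower) and 9.04% passed the unadjusted p. No gene of any kind passed an adjusted p of 0.05 by edgeR in these comparisons (0 genes each, with 762, 528 and 1059 at the unadjusted p alone). By DESeq2 the same threshold was passed by 0, 0 and 11 genes, and by limma voom by 0 in each. The comparisons share groups, so their values are set side by side and are not independent of each other.

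The 3 C1q chains, C1qa, C1qb and C1qc, form the recognition molecule of the classical pathway together. In the reference gene table their genes lie next to each other, in the order C1qb, C1qc, C1qa. C1qa stood at 32.7, 23.2, 39.6, 23.8 and 41.3 CPM in TUMOUR STD replicates 8 to 12. It ranged from 28.1 to 61.6 CPM in CHEMO STD (median 38.2) and from 28.8 to 60.2 CPM in CHEMO FO (median 33.5). The highest levels were in the combined CHEMO STD replicates 1 and 2 and in CHEMO FO replicate 18, and the 3 groups overlapped. C1qb stood at 19.3, 16.5, 29.3, 15.9 and 28.9 CPM in the same TUMOUR STD rats. Its range was 22.6 to 54.5 CPM in CHEMO STD (median 26.7) and 18.7 to 81.1 CPM in CHEMO FO (median 25.3). All 6 CHEMO STD samples were above the TUMOUR STD median of C1qb, but only the combined replicates 1 and 2 and, narrowly, replicate 7 were above every TUMOUR STD sample. C1qc stood at 27.5, 26.5, 43.6, 25.7 and 44.5 CPM in TUMOUR STD. It ranged from 31.8 to 76.3 CPM in CHEMO STD (median 39.5) and from 32.2 to 88.4 CPM in CHEMO FO (median 40.0). As for C1qb, 3 TUMOUR STD rats were low and replicates 10 and 12 were within the range of the treated rats.

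The upstream sequences of C1qa and C1qb are shown because both genes varied together. They are the 250 bases before the annotated start, on the minus strand, from RefSeq on GRCr8, a later build than the Rnor 6 genome used for the counts. The table held 5 of the 9 genes, of which C1qa, C1qb, C1r and C3 are shown. Capitals mark matches on either strand to GGAAGT, the core of ETS factors such as PU.1, and to TTCNNNGAA, the STAT palindrome.
C1qa (chr5:154419934-154420183): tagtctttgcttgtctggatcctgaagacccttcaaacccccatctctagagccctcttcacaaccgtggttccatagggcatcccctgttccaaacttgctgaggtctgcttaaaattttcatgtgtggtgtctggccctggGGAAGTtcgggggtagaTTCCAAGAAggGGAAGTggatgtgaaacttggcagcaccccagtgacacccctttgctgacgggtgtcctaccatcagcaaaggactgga
C1qb (chr5:154407828-154408077): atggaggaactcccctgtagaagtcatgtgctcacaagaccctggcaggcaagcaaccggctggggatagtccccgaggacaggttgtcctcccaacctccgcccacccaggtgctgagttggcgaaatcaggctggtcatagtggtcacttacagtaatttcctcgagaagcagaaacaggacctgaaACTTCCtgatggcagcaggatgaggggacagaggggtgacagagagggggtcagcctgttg
C1qa held 2 ETS matches and 1 STAT match and C1qb held 1 ETS match. Of all 33469 promoters of the same length, 19.2% held an ETS match and 7.67% a STAT match. No match to the IRF element of interferon-induced genes, present in 3.41% of promoters, lay in either window.

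In the chemotherapy effect, the log2 fold changes of the C1q chains were 0.38 (SE 0.221) for C1qa, 0.51 (SE 0.320) for C1qb and 0.45 (SE 0.260) for C1qc. The unadjusted edgeR p values were 0.0984, 0.125 and 0.0955, and the adjusted ones 0.719, 0.727 and 0.719. Exact permutation tests of mean log2 CPM gave 0.201, 0.119 and 0.169 (two-sided, n = 6 and 5). By these tests the differences were within the spread between rats, with the edgeR spread shared over all 3 groups. Under voom the unadjusted p values were 0.0247, 0.0181 and 0.0226 (adjusted p = 0.544 each), at changes of 0.43, 0.54 and 0.46. A setting with no filter and without CHEMO FO replicate 18 was added after seeing the data. Its unadjusted edgeR p values were 0.0377, 0.0204 and 0.0248, at changes of 0.40, 0.53 and 0.47. With the 2 conditions alone they were 0.0848, 0.0427 and 0.0615. All these changes were under 1.5-fold. Mean C1qa was 32.1 ± 8.53 CPM (SD, n = 5) in TUMOUR STD against 41.4 ± 12.9 CPM (SD, n = 6) in CHEMO STD. In another setting added after seeing the data, TUMOUR STD replicate 10 and CHEMO FO replicate 18 were both left out. The changes of C1qb and C1qc were then 0.66 and 0.59, past both thresholds (unadjusted edgeR p values of 0.00996 and 0.0122, both with an adjusted p of 0.958). TUMOUR STD replicate 10 held the highest C1qb of its group, at 29.3 CPM, and the next to highest C1qc, at 43.6 CPM. The changes of C1qb and C1qc were also past both thresholds with CHEMO STD replicates 1 and 2 counted apart, at 0.66 and 0.59. The unadjusted edgeR p values were then 0.0492 and 0.0338, both with an adjusted p of 0.844. That setting enters as 2 samples the pair counted here as 1, which held the highest C1qb and C1qc of CHEMO STD. Its p values therefore do not measure the spread between rats. With those replicates both left out, the changes of C1qa, C1qb and C1qc were 0.24, 0.26 and 0.25, with exact permutation p values of 0.373, 0.190 and 0.341 (n = 5 and 5). The summed level of 20 macrophage markers, led by Csf1r, Mrc1 and Lyz2, ranged from 267 to 470.0 CPM in TUMOUR STD and from 319 to 566 CPM in CHEMO STD. Of these markers all but Ms4a7, at 0 in 2 samples, were detected in every sample. Of the 19 tested, 13 had a log2 change above 0 and 6 below 0 in CHEMO STD, where 49.7% of all genes were above 0, and 1 was called, against 2.38% of all genes. The part of macrophage RNA in the C1q levels was not tested.

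In the diet effect, the changes of the C1q chains were -0.20 (SE 0.197) for C1qa, 0.10 (SE 0.283) for C1qb and -0.01 (SE 0.231) for C1qc on the log2 scale. Exact permutation p values were 0.408, 0.955 and 0.997 (n = 8 and 6). Without CHEMO FO replicate 18 these changes became -0.36, -0.26 and -0.23, all below 0 and none past the thresholds, with exact permutation p values of 0.137, 0.439 and 0.515 (n = 7 and 6). CHEMO FO had 36.2 ± 10.2 CPM of C1qa with this library and 32.8 ± 3.52 CPM (SD, n = 7) without it, so that the remaining rats lay close together. In CHEMO FO versus TUMOUR STD, C1qb differed by 0.61 (SE 0.305, edgeR adjusted p = 0.554) and C1qc by 0.45 (SE 0.247, edgeR adjusted p = 0.576). The exact permutation p values were 0.169 and 0.124 (n = 8 and 5). All 8 CHEMO FO samples were above the TUMOUR STD median of C1qc, and 7 were for C1qb. Without CHEMO FO replicate 18 these values were 0.26 and 0.24. C1qb was called in 7 of the 20 fits that left out 1 library, namely without CHEMO FO replicate 13, 14, 16, 17 or 20 or TUMOUR STD replicate 10 or 12 (log2 change 0.66 to 0.74). It was also called by DESeq2 (0.61, unadjusted p of 0.0439), with no filter (0.62) and with CHEMO STD replicates 1 and 2 both left out (0.62).

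**Figure D1:**
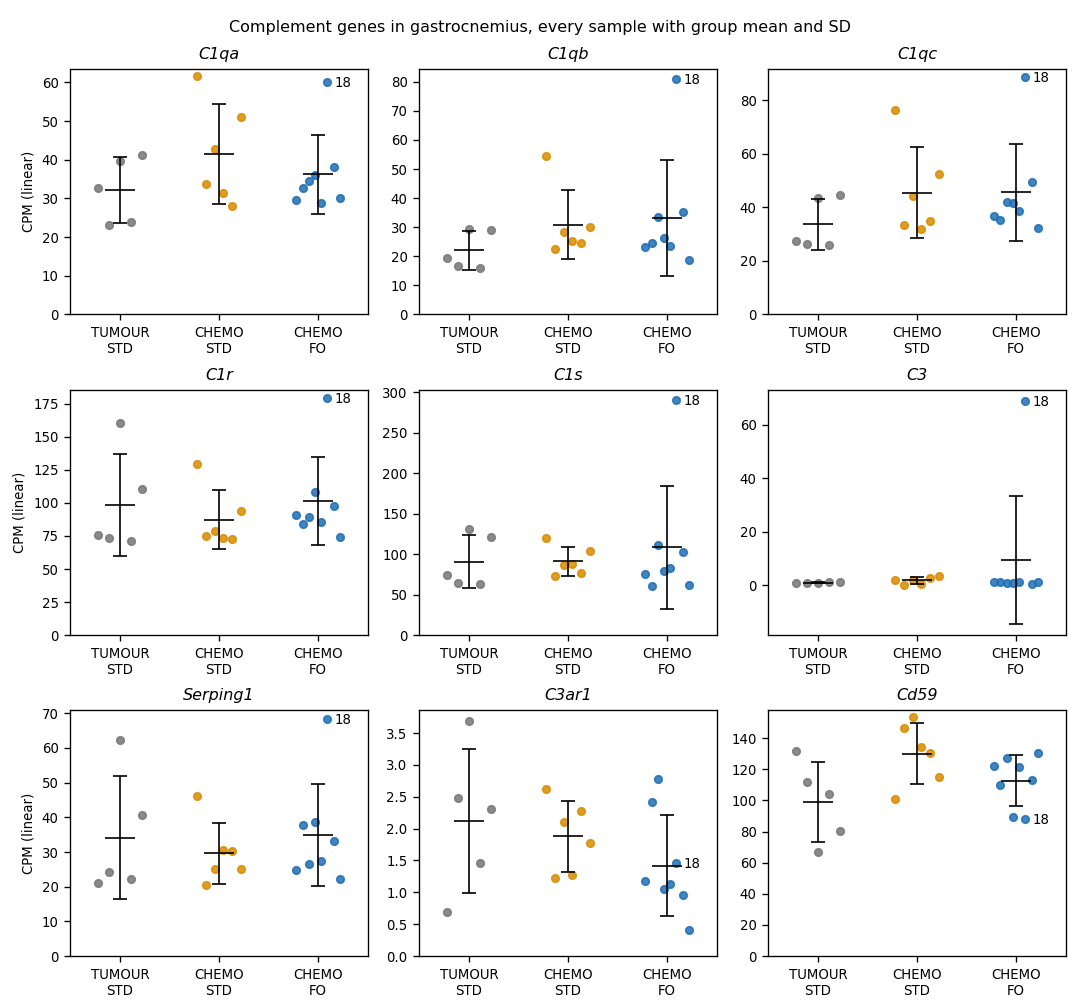
Levels of the 9 complement genes in CPM on linear axes. Each point is 1 sample, with CHEMO STD replicates 1 and 2 as 1 point, the horizontal mark is the group mean and the bars are the SD (n = 5, 6 and 8). The point marked 18 is CHEMO FO replicate 18, which was the highest of all samples in 6 of the 9 genes. The SD of C3 in CHEMO FO is 24.0 CPM with that point and 0.353 CPM without it.

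C1r and C1s are the serine proteases that C1q activates, and their genes are neighbours in the reference gene table. C1r stood at 75.8, 73.6, 160.5, 71.2 and 111 CPM in TUMOUR STD replicates 8 to 12. It ranged from 72.4 to 129 CPM in CHEMO STD (median 76.8) and from 74.3 to 179.6 CPM in CHEMO FO (median 90.0). Each group held 1 or 2 high samples above a tight cluster. C1s stood at 73.8, 64.8, 131, 63.7 and 121 CPM in TUMOUR STD. Its range was 72.8 to 119.9 CPM in CHEMO STD (median 87.2) and 61.0 to 290.2 CPM in CHEMO FO (median 81.4). The level in CHEMO FO replicate 18 lay far above the next in that group, 112 CPM.

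The chemotherapy effect was -0.17 (SE 0.233) for C1r and 0.01 (SE 0.323) for C1s on the log2 scale, with unadjusted edgeR p values of 0.471 and 0.977. The exact permutation p values were 0.639 and 0.807 (n = 6 and 5). In the diet effect the changes were 0.21 (SE 0.210) and 0.25 (SE 0.290), with exact permutation p values of 0.367 and 0.887 (n = 8 and 6). For C1s the sign turned to -0.15 without CHEMO FO replicate 18, and for C1r it was 0.04. In CHEMO FO versus TUMOUR STD, the changes were 0.04 (SE 0.220) for C1r and 0.26 (SE 0.306) for C1s, and they were -0.12 and -0.14 without that library. Mean C1s in CHEMO FO was 108 ± 75.6 CPM (SD, n = 8) with it and 82.2 ± 19.1 CPM (SD, n = 7) without it. For C1r, leaving out TUMOUR STD replicate 10 turned the chemotherapy change to 0.08.

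The sequence upstream of C1r is shown on the plus strand of GRCr8 because C1r varied with the C1q chains. Capitals mark its match to TTGCNNAA, a C/EBP motif, on either strand. This motif was found in 9.22% of all promoters.
C1r (chr4:159098763-159099012): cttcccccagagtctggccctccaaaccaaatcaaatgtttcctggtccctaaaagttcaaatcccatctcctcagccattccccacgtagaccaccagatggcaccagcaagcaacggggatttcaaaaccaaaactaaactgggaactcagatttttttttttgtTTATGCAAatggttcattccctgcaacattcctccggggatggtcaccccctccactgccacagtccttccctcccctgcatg
No ETS, STAT or IRF match lay in this window.

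Serping1 encodes C1 inhibitor, the plasma serpin that inactivates C1r and C1s. It stood at 21.0, 24.4, 62.4, 22.2 and 40.6 CPM in TUMOUR STD replicates 8 to 12. Its range was 20.5 to 46.1 CPM in CHEMO STD (median 27.7) and 22.3 to 68.3 CPM in CHEMO FO (median 30.3). The highest samples were the same as those of C1r in each group, TUMOUR STD replicate 10, the combined CHEMO STD replicates 1 and 2, and CHEMO FO replicate 18. The chemotherapy change was -0.20 (SE 0.296) on the log2 scale, with an exact permutation p of 0.753 (n = 6 and 5). In the diet effect the change was 0.23 (SE 0.267), with an exact permutation p of 0.473 (n = 8 and 6), and 0.00 without CHEMO FO replicate 18. CHEMO FO differed from TUMOUR STD by 0.04 (SE 0.278), or by -0.18 without that library. Without TUMOUR STD replicate 10 the chemotherapy change turned to 0.15. The keratinocyte markers in that library are at the values given above. TUMOUR STD replicate 12, the next highest of its group in C1r, C1s and Serping1, held them at 7.27 CPM. In replicates 10 and 12, fibroblast markers summed to 13098 and 13752 CPM, against 3096 to 5446 CPM in the rest of TUMOUR STD. Macrophage markers summed to 470 and 439 CPM, against 267 to 318 CPM. The part of any of these markers in the C1r, C1s and Serping1 levels was not tested.

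C3 is the component on which the complement pathways meet. It was scarce in this muscle, with 0 to 26 counts in every library but 1. The TUMOUR STD libraries held 5, 7, 9, 7 and 8 counts, or 0.869, 0.696, 0.874, 1.13 and 1.42 CPM. CHEMO STD samples ranged from 0 to 3.54 CPM (median 2.08). In CHEMO STD replicate 3 there were 0 counts, which allows a level of up to 0.918 CPM (3 counts, counting error only). CHEMO FO ranged from 0.480 to 68.9 CPM (median 1.25). The top value is that of CHEMO FO replicate 18, with 758 counts, 19.5 times the next highest sample (CHEMO STD replicate 7) and 81.8% of all C3 counts in the 20 libraries. The other 7 CHEMO FO libraries held 2 to 10 counts each. The groups overlapped.

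The sequence upstream of C3 is shown, on the minus strand of GRCr8, because C3 was the 1 gene called by edgeR among the 9. Capitals mark its match to the C/EBP motif.
C3 (chr9:2201340-2201589): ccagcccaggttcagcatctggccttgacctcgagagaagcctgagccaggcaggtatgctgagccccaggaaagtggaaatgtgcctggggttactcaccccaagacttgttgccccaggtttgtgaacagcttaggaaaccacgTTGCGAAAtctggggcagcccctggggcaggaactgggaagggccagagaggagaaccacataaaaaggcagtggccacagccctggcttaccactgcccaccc
C/EBP factors are known to act on C3 in the acute phase response. The match is a description of the letters and was not tied to the counts. The same window of C3ar1, which is not shown, held no ETS, STAT, IRF or C/EBP match.

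**Figure D2:**
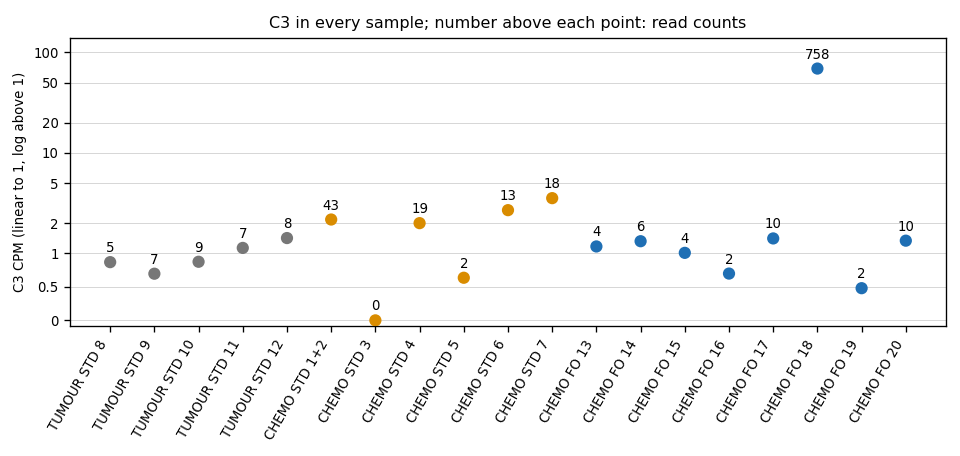
C3 in CPM in each of the 19 samples, on an axis that is linear to 1 CPM and logarithmic above. The number over each point is its count of reads. CHEMO FO replicate 18 sits at 68.9 CPM and no other sample is above 3.54 CPM.

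Both calls of C3 rest on this library. In CHEMO FO versus CHEMO STD the log2 fold change was 2.39 (SE 0.958, unadjusted edgeR p = 0.0202, adjusted p = 0.974), while the exact permutation test gave p = 0.755 (n = 8 and 6). Only 1 of the 8 CHEMO FO samples was above the CHEMO STD median. In CHEMO FO versus TUMOUR STD it was 3.41 (SE 1.12, unadjusted edgeR p = 0.00565, adjusted p = 0.486), and the exact permutation p was 0.638 (n = 8 and 5). C3 passed the filter on low counts with 5 of 19 samples at or above its level of 1.84 CPM. It did not pass once CHEMO FO replicate 18 or CHEMO STD replicate 1, 4, 6 or 7 was left out. In a fit with no filter and without CHEMO FO replicate 18, the changes were -0.81 (edgeR adjusted p = 0.767) against CHEMO STD and 0.16 (edgeR adjusted p = 0.986) against TUMOUR STD. The exact permutation p values without that library were 0.616 (n = 7 and 6) and 0.855 (n = 7 and 5). DESeq2, which replaced the 758 counts by 13 as an outlier, gave -0.81 and 0.20, with unadjusted p values of 0.0527 and 0.661. Mean C3 in CHEMO FO was 9.54 ± 24.0 CPM (SD, n = 8) with the library and 1.06 ± 0.353 CPM (SD, n = 7) without it.

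In the chemotherapy effect C3 averaged 0.998 ± 0.282 CPM (SD, n = 5) in TUMOUR STD against 1.84 ± 1.31 CPM (SD, n = 6) in CHEMO STD. The log2 fold change was 1.02 (SE 1.25, unadjusted edgeR p = 0.422, adjusted p = 0.837), and the exact permutation test gave p = 0.626 (n = 6 and 5). DESeq2 called it, with a change of 1.01 and an unadjusted p of 0.0280 (adjusted p = 0.712). With outlier counts kept DESeq2 did not (0.91, unadjusted p of 0.443). The edgeR SE of C3 rests on a spread shared over all 3 groups, CHEMO FO replicate 18 included. In the fit with no filter and without that library, the edgeR change of C3 was 0.97. It was past 1.5-fold and came close to the unadjusted p threshold without passing it. Of the 6 CHEMO STD samples, 4 were above the TUMOUR STD median and 2 were below it. CHEMO STD replicate 7 was the highest of them, and it also held the lymphocyte and neutrophil markers at the level given above. The difference in mean log2 CPM was 0.35 with it and 0.10 without it (exact permutation p = 0.889, n = 5 and 5). Without CHEMO STD replicate 3, which had 0 counts, it was 0.84 (exact permutation p = 0.0635, n = 5 and 5).

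C3ar1, the receptor for the C3a fragment found on myeloid cells, was also scarce, with 3 to 38 counts per library. It stood at 0.695, 2.49, 3.69, 1.46 and 2.31 CPM in TUMOUR STD replicates 8 to 12. Its range was 1.22 to 2.62 CPM in CHEMO STD (median 1.94) and 0.401 to 2.78 CPM in CHEMO FO (median 1.15). The 3 groups overlapped, and 6 of the 8 CHEMO FO samples were below the CHEMO STD median. Its change was -0.15 (SE 0.396) in the chemotherapy effect and -0.50 (SE 0.382) in the diet effect, on the log2 scale. The edgeR p values were 0.714 and 0.201, and the exact permutation p values were 0.885 and 0.185. CHEMO FO differed from TUMOUR STD by -0.65 (SE 0.389, edgeR adjusted p = 0.609), with an exact permutation p of 0.256 (n = 8 and 5). That difference was past both thresholds without TUMOUR STD replicate 8 (-0.84, exact permutation p of 0.0646) or without CHEMO FO replicate 15 (-0.82, exact permutation p of 0.139). The unadjusted edgeR p values were then 0.0371 and 0.0460. Differences of this size were not resolved at these counts. Unlike the C1 genes and C3, C3ar1 was not high in CHEMO FO replicate 18, where it stood at 1.45 CPM.

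Cd59 anchors to the cell surface and stops the assembly of the membrane attack complex. It stood at 132, 111, 67.0, 104 and 80.2 CPM in TUMOUR STD replicates 8 to 12. Its range was 101 to 153 CPM in CHEMO STD (median 132) and 88.1 to 131 CPM in CHEMO FO (median 117). In TUMOUR STD, the lowest samples were replicates 10 and 12, those with the highest C1r, C1s and Serping1. Of the 6 CHEMO STD samples, 5 were above the TUMOUR STD median, and none of the 8 CHEMO FO samples (0) was above the CHEMO STD median.

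Mean Cd59 was 98.9 ± 25.6 CPM in TUMOUR STD (SD, n = 5), 130.0 ± 19.6 CPM in CHEMO STD (SD, n = 6) and 113 ± 16.3 CPM in CHEMO FO (SD, n = 8). The chemotherapy change was 0.39 (SE 0.162, edgeR adjusted p = 0.719), which is below the 1.5-fold threshold. Its unadjusted edgeR p was 0.0235, and the exact permutation test gave p = 0.0519 (n = 6 and 5, smallest possible 0.00216). Without TUMOUR STD replicate 10 the change was 0.28, and Cd59 no longer passed the unadjusted p of edgeR (0.0882, with an exact permutation p of 0.119). Without TUMOUR STD replicate 8 it was 0.53 (exact permutation p = 0.0238), and with CHEMO STD replicates 1 and 2 both left out it was 0.47 (exact permutation p = 0.0238). The diet change was -0.21 (SE 0.144, edgeR adjusted p = 0.974), with an exact permutation p of 0.113 (n = 8 and 6). Without CHEMO FO replicate 18 it was -0.15. CHEMO FO and TUMOUR STD differed by 0.19 (SE 0.153, edgeR adjusted p = 0.714), with an exact permutation p of 0.218 (n = 8 and 5).

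**Figure D3:**
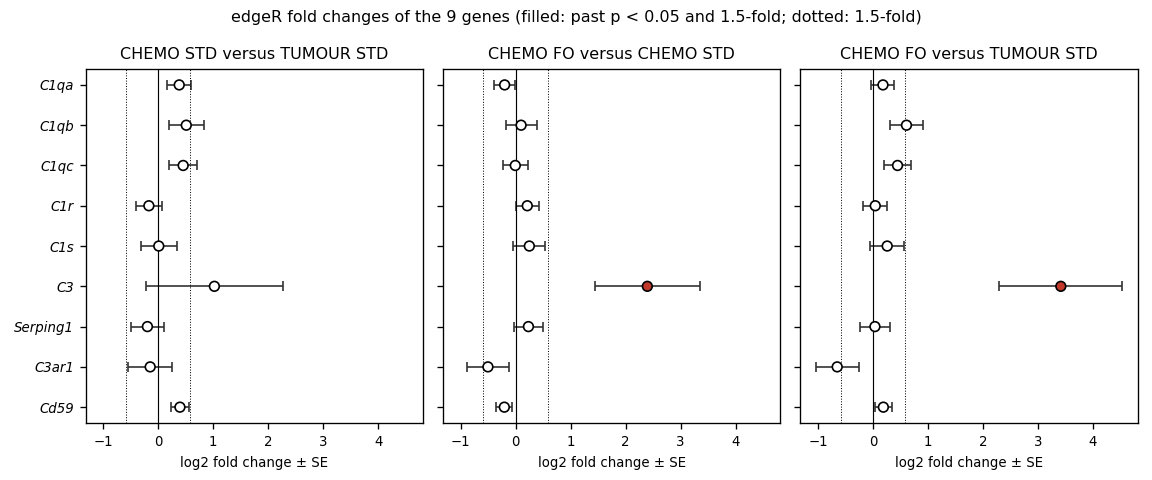
Log2 fold changes of the 9 genes by edgeR with their SE, 1 panel per comparison. Filled points are past an unadjusted p of 0.05 and 1.5-fold, and dotted lines mark 1.5-fold. Only C3 is filled, at 2.39 and 3.41, and its bars are the widest.

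Of the 9 genes, the 3 C1q chains, C1r, C1s and Serping1 varied together from rat to rat within the groups. After the group means of log2 CPM were removed, 63 relations were computed over the 19 samples, between the 9 genes and with the mean log2 CPM of 3 marker lists. P values come from 100000 permutations within groups, adjusted over the 63. The 3 C1q chains were the most alike, with r of 0.89 to 0.96 (rho 0.83 to 0.88, permutation, adjusted p of r = 9e-05, the smallest given). Among the C1q chains, C1r, C1s and Serping1, the 15 pairs had r of 0.70 to 0.96 (rho 0.54 to 0.91). All 15 had an adjusted permutation p of r below 0.05, and 14 also for rho, the exception being C1qa with Serping1 (adjusted p of rho = 0.0653). Leaving out the 2 samples farthest from the median of the first gene, r stayed at 0.49 to 0.93. The library sizes scale all genes of a sample alike, which these relations share.

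Cd59 ran the other way. Its r was -0.89 with Serping1 (rho -0.86, permutation, adjusted p of r = 0.000118) and -0.86 with C1r (rho -0.72). With the 6 genes of the C1 complex and its inhibitor, r was -0.89 to -0.63, and all 6 had an adjusted permutation p of r below 0.05, 4 of them also for rho. Without the 2 farthest samples, r was -0.85 to -0.49. C3 by contrast had r of 0.20 to 0.71 with the 7 members other than Cd59, and without CHEMO FO replicate 18 its r with all 8 lay between -0.20 and 0.34. Its relations rest on that library. C3ar1 had no relation with an adjusted permutation p below 0.05 (0 of 8, r -0.49 to 0.54).

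The 6 C1 genes followed the macrophage list, with r of 0.73 to 0.90 (rho 0.67 to 0.88, adjusted permutation p of r 0.000118 to 0.00271). Without CHEMO FO replicate 18, r was 0.61 to 0.86. With the fibroblast list, led by Col1a1, Col3a1 and Dcn, r was -0.06 to 0.34, and without that library it was 0.48 to 0.81, with C1r at 0.81. The fibroblast markers were at their lowest in CHEMO FO replicate 18, a summed 1901 CPM against up to 13752 CPM, whereas its macrophage markers summed to 879 CPM against 267 to 566 CPM in the other samples. With the endothelial list r was 0.06 to 0.32, and 0.42 to 0.61 without that library. Cd59 had r of -0.71 with the macrophage list (rho -0.62, adjusted permutation p of r = 0.00198) and -0.54 with the fibroblast list (rho -0.50, adjusted permutation p of r = 0.0661). Without CHEMO FO replicate 18 these were -0.67 and -0.80.

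**Figure D4:**
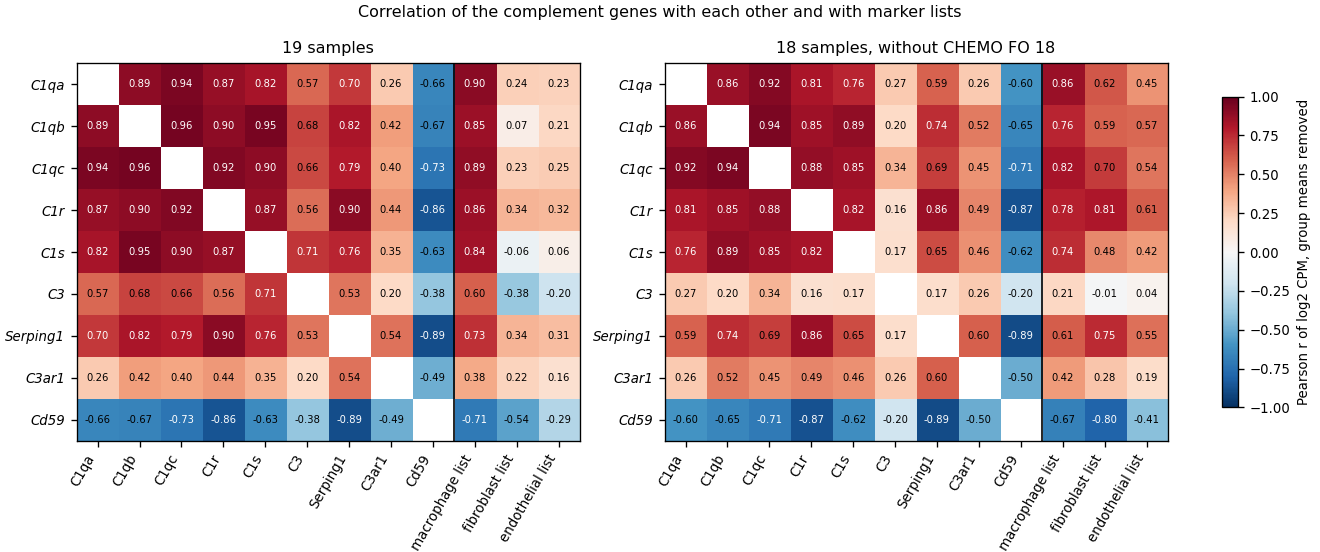
Pearson r of log2 CPM with group means removed, between the 9 genes and with 3 marker lists (right of the line), over 19 samples and over the 18 left without CHEMO FO replicate 18. Red is positive and blue negative. The block of C1q, C1r, C1s and Serping1 stays red in both panels, Cd59 stays blue, and the row of C3 pales in the second.

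**Figure D5:**
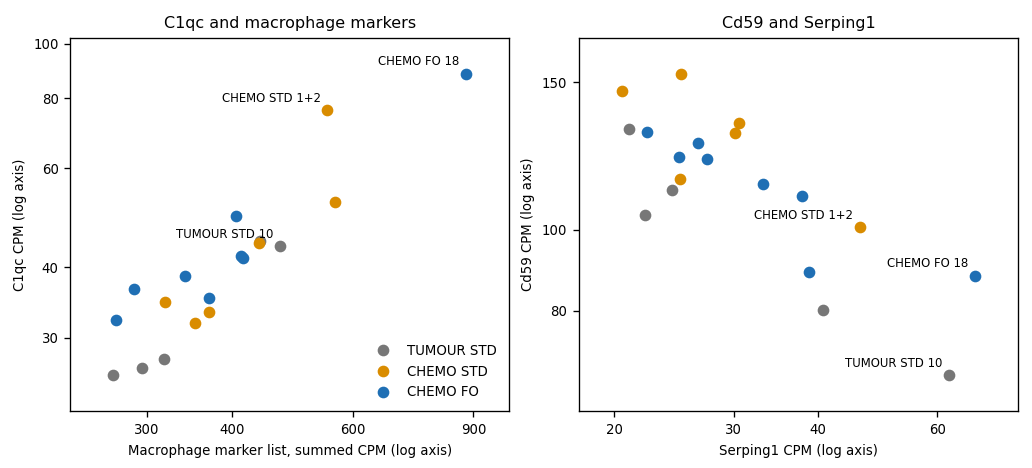
Left, C1qc against the summed CPM of the 20 macrophage markers. Right, Cd59 against Serping1. All axes are logarithmic and each point is 1 of the 19 samples, coloured by group. C1qc rises with the macrophage sum (within groups r = 0.89 with the list's mean log2 CPM), and Cd59 is lowest in TUMOUR STD replicate 10, at 67.0 CPM, where Serping1 is 62.4 CPM.

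By Pearson r over the 19 samples with group means removed, the 5 tested genes most like the mean of the C1q chains were Mrc1, the macrophage mannose receptor and itself in the macrophage list (r = 0.92), Gda, Ctsb, Xdh and Pgam1. For the mean of C1r, C1s and Serping1 they were Ctsb, a lysosomal protease (r = 0.93), Mrc1, Gda, Psmd2 and Abcf2. For C3 they were Eif4ebp1 (r = 0.90), Mafk, Ndfip2, Tsc22d3 and Slc15a4, which fell to between 0.60 and 0.77 without CHEMO FO replicate 18. For C3ar1 they were Cherp (r = 0.83), Edc4, Fbrs, Plin4 and Zcchc14. For Cd59 they were Rtn4 (r = 0.94), Usp15, Idh3b, Filip1l and Rmdn1. These were ranked among 11716 genes and are given as likeness alone.

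CHEMO FO replicate 18 was the highest of all samples for 6 of the 9 complement genes, C1qb at 81.1 CPM, C1qc at 88.4, C1r at 179.6, C1s at 290.2, C3 at 68.9 and Serping1 at 68.3 CPM. In its group it also held the highest C1qa and the lowest Cd59. C3 was 1 of 5 genes at over 10 times the level of every other sample. The others were Mt2A, a metallothionein (727 CPM, next 11.1), Gpnmb, Pvr and Tubb6. Trim63, the muscle ubiquitin ligase MuRF1, stood at 2589 CPM there, against at most 415 CPM elsewhere. TUMOUR STD replicate 10 held the highest C1r, C1s and Serping1 of its group and the highest C3ar1 of all samples.

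Of 47 other complement genes listed, 46 had a row and 24 passed the filter on low counts. Among the genes of initiation and the C3 convertase (8 tested), the chemotherapy effect was above 0 in 5 and below 0 in 3, tests aside (median log2 change 0.19, all genes -0.002), and 1 was called, Fcna, against 2.38% of all genes. The diet effect was above 0 in 1 and below 0 in 7 (median -0.235, all genes -0.006). In that comparison 0 of them were called and 2 passed the unadjusted p, Fcna and Cfp, against 1.66% and 4.51% of all genes. Fcna encodes ficolin A, a lectin pathway recognition molecule. It stood at 11.5 ± 3.22 CPM in TUMOUR STD (SD, n = 5), 17.4 ± 6.82 CPM in CHEMO STD (SD, n = 6) and 11.8 ± 1.57 CPM in CHEMO FO (SD, n = 8). The chemotherapy change was 0.61 (SE 0.222, edgeR adjusted p = 0.719), with an unadjusted p of 0.0115. It lost the 1.5-fold threshold without TUMOUR STD replicate 8 (0.54), TUMOUR STD replicate 11 (0.50) or CHEMO STD replicate 7 (0.42), with CHEMO STD replicates 1 and 2 both left out (0.52) and under voom (0.57). Its diet effect was -0.58 (SE 0.199, edgeR adjusted p = 0.974), just under 1.5-fold, and it was called in 8 of the 20 fits that left out 1 library, with library totals (-0.60) and with CHEMO STD replicates 1 and 2 counted apart (-0.63). Properdin, Cfp, which stabilises the alternative convertase, differed by -0.57 in the diet effect (SE 0.219, edgeR adjusted p = 0.974), again under 1.5-fold.

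Of the regulators tested (8), 0 were called by edgeR in any comparison, and at the unadjusted p alone 1, 0 and 2 passed in the chemotherapy effect, the diet effect and CHEMO FO against TUMOUR STD, where 6.5%, 4.51% and 9.04% of all genes did. Vitronectin, Vtn, which binds the terminal complex, was at 28.0 ± 7.26 CPM in TUMOUR STD (SD, n = 5), 20.3 ± 3.67 CPM in CHEMO STD (SD, n = 6) and 19.6 ± 4.07 CPM in CHEMO FO (SD, n = 8). Its changes of -0.45 (SE 0.186, edgeR adjusted p = 0.719) with chemotherapy and -0.52 (SE 0.175, edgeR adjusted p = 0.486) in CHEMO FO against TUMOUR STD passed the unadjusted p but were under 1.5-fold. C1qbp, a mainly mitochondrial protein that binds C1q, was 58.0 ± 6.69 CPM in TUMOUR STD (SD, n = 5) and 73.2 ± 4.15 CPM in CHEMO FO (SD, n = 8). These groups did not overlap, as in 0.324% of all genes, the highest TUMOUR STD sample being at 65.8 CPM and the lowest CHEMO FO sample at 67.0 CPM. The change of C1qbp was 0.34 (SE 0.100, edgeR adjusted p = 0.486), also under 1.5-fold. Clusterin (Clu) and decay accelerating factor (Cd55) differed by -0.08 and 0.43 with chemotherapy and by 0.12 and -0.35 with diet, neither past the unadjusted p.

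The receptors tested (5), C5ar1, Cd93, Itgam, Itgax and Itgb2, all had a diet effect below 0, between -0.34 and -0.11 on the log2 scale, and 0 were called or passed the unadjusted p by edgeR. The chemotherapy effect was above 0 in 3 and below 0 in 2, again with 0 past the unadjusted p. Of the receptors below the filter, Cr2 held 216 counts (42.5 CPM) in CHEMO STD replicate 7 and 0 to 2 in every other library. In the fit with no filter its log2 change was 8.57 with chemotherapy and -7.40 with diet. Neither change passed the adjusted p threshold, and both rest on the counts of that library. Among the remaining abundant genes, Masp1 of the lectin pathway, C4b, and the adipose protease Cfd were not called in any comparison. Masp1 was at 91.7 CPM in CHEMO FO replicate 18, against at least 187 CPM in the rest of that group. Cfd was highest in CHEMO STD replicate 7, at 187 CPM, where adipocyte markers summed to 414 CPM. Of the terminal pathway genes, C6, C7 and C8g were tested and 0 were called or passed the unadjusted p by edgeR, while C5, C8a and C9 were below the filter and C8b had 0 counts. Cfb and Mbl1 also had 0 counts. Liver and plasma protein markers summed to at most 4.10 CPM in any sample, with Fgg at 0 in all 19.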

How the data were processed

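Total RNA libraries depleted of rRNA were made with a stranded kit and sequenced in pairs. The authors called bases with CASAVA 1.9, trimmed with Trim Galore 0.4.1, checked with FastQC 0.11.4, aligned to Rnor 6 with TopHat2 2.0.10 and Bowtie2, and annotated in Partek Flow. They deposited raw integer counts per gene. How reads were assigned to genes, strand included, is not given in the sources used here. Reads of overlapping genes may therefore be shared. Unnamed rows (388, holding 0.102% to 0.272% of a library) were left out. For Myh4, 2 values were written rounded to 3 digits.

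Counts of 19 samples, CHEMO STD replicates 1 and 2 summed, were fitted in edgeR 4.0.16 (R 4.3.3) with TMM, the default filter (minimum count 10, minimum total 15) and the quasi-likelihood test over all 3 groups, with Benjamini-Hochberg adjustment over 11716 genes. A gene was called at p below 0.05 and 1.5-fold. Exact permutation tests were two-sided, on mean log2 CPM (prior count 2), enumerating 462, 3003 or 1287 arrangements and unadjusted. The labels name separate samples and no shared batch, so p values measure the spread between these samples. The count columns of CHEMO STD replicates 1 and 2 alone carry MB in their names, where all others carry VM. These names are otherwise the same, but for a d added for replicate 2. What MB or the d marks is not given in the sources used here. Counted as 1 sample, these libraries held the highest level of CHEMO STD in 7 of the 9 complement genes. Named genes were the 9 members, other complement genes called or among the 8 of highest mean CPM, and the 5 most alike. Members, lists and tests were chosen with earlier results of these data known. The fit was checked on simulated counts of 11716 genes, with 200 of them changed 2-fold in 1 comparison at a time. Of the changed genes, 88.9%, 93.9% and 93.5% were called in the 3 comparisons. So were 203, 185 and 178 unchanged genes, where 279, 195 and 422 genes were called in the data. The alternatives were RLE factors, library totals, no filter or a stricter one (mean of 10 counts), DESeq2 1.42.0, limma 3.58.1 voom with quality weights, replicates 1 and 2 apart or left out, only the 2 conditions compared, no fold threshold, a prior count of 0.5, and each library left out. DESeq2 with outlier counts kept, TUMOUR STD replicate 10 and CHEMO FO replicate 18 left out together, and the latter left out with no filter were added after seeing the data. Figures used matplotlib 3.10.9 in Python 3.11.15, and scipy 1.17.1 gave correlations. Promoters are from RefSeq.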

Additional observations from a re-analysis of the deposited data

Results flagged for a closer look

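Each of the 9 genes was examined in each of the 3 groups for a sample whose distance to its nearest neighbour was large against the range of the group (Dixon's test at its 95% critical value). Of these 27 tests 8 were positive, where chance gives about 1 in 20, and the tests are not independent because the same libraries recur. In 7 of them the sample was CHEMO FO replicate 18, at 60.2 CPM of C1qa, 81.1 CPM of C1qb, 88.4 CPM of C1qc, 179.6 CPM of C1r, 290.2 CPM of C1s, 68.9 CPM of C3 and 68.3 CPM of Serping1. The eighth was C1qb at 54.5 CPM in the combined CHEMO STD replicates 1 and 2. For C3 in CHEMO FO the gap was 0.986 of the range. In the same library the macrophage markers summed to 879 CPM and the skeletal muscle markers to 122285 CPM, the highest and the lowest of the 19 samples, and their part in these levels was not tested.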

How the results depend on the processing

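Settings that changed a direction or a call are given here or, for Fcna, beside its values above, and the cause was not tested. Numbers of genes called are over all tested genes. In the chemotherapy effect they were 971 with no filter, 603 with CHEMO STD replicates 1 and 2 both left out, 762 with no fold threshold and 1004 without CHEMO FO replicate 18 with no filter, against 279. Leaving out 1 library gave 161 to 530, the fewest without TUMOUR STD replicate 10 and the most without replicate 8 of that group (450.0 without its replicate 11). With diet they were 722 with no filter, 528 with no fold threshold and 683 without CHEMO FO replicate 18 with no filter, against 195, and 153 to 234 leaving out 1 library. Against TUMOUR STD, CHEMO FO had 1116 with no filter, 1059 with no fold threshold, 201 without TUMOUR STD replicate 10 and CHEMO FO replicate 18 and 876 without the latter with no filter, against 422. Leaving out 1 library gave 273 (without CHEMO FO replicate 18) to 584.

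Of the 9 complement genes, the number called in the chemotherapy effect was 0, but 1 under DESeq2 (C3), 1 with no fold threshold (Cd59), 2 with CHEMO STD replicates 1 and 2 apart (C1qb and C1qc) and 2 without TUMOUR STD replicate 10 and CHEMO FO replicate 18. It was 0 in all 20 fits leaving out 1 library. With diet it was 1, but 0 under DESeq2, voom, both replicates left out, 2 conditions alone, and without CHEMO FO replicate 18 in the added settings, and 0 to 1 leaving out 1 library (0 without CHEMO STD replicate 1, 4, 6 or 7 or CHEMO FO replicate 18). For CHEMO FO against TUMOUR STD it was 1. Under DESeq2 and with CHEMO STD replicates 1 and 2 both left out the 1 gene was C1qb (0.61 and 0.62) and not C3. It was 2, C3 and C1qb, with no filter and under DESeq2 with outlier counts kept, 0 under voom, with 2 conditions alone and without CHEMO FO replicate 18 in the added settings, and 0 to 2 leaving out 1 library.

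Log2 changes turned sign as follows. In the chemotherapy effect, voom gave 0.027 for Serping1 and 0.090 for C3ar1. With CHEMO STD replicates 1 and 2 both left out C1s was -0.074 (-0.027 in mean log2 CPM). Without TUMOUR STD replicate 10 and CHEMO FO replicate 18, C1r was 0.090, Serping1 0.16 and C3ar1 0.17. With diet C1qc was 0.016 with library totals, 0.0025 with no filter and 0.21 with both replicates left out. DESeq2 gave -0.81 for C3. Voom gave -0.12 for C1qb, -0.10 for C1s and -0.12 for C3. C1qb was -0.038 with replicates 1 and 2 apart. Without TUMOUR STD replicate 10 and CHEMO FO replicate 18, C1qb was -0.27, C1s -0.16 and Serping1 -0.0061. Without CHEMO FO replicate 18 and with no filter, C1qb was -0.27, C1s -0.16, C3 -0.81 and Serping1 -0.0080. That setting gave -0.13 for C1r, -0.14 for C1s and -0.19 for Serping1 in CHEMO FO versus TUMOUR STD.

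Leaving out 1 library, changes crossed 0 for 4 genes in the chemotherapy effect, C1r (-0.27 to 0.080), C1s (-0.094 to 0.18), Serping1 (-0.32 to 0.15) and C3ar1 (-0.34 to 0.16). With diet they did for C1qb (-0.26 to 0.20), C1qc (-0.23 to 0.061) and C1s (-0.15 to 0.34). For CHEMO FO against TUMOUR STD they did for C1r (-0.12 to 0.29), C1s (-0.14 to 0.43), Serping1 (-0.18 to 0.38) and Fcna (-0.074 to 0.17). Differences in mean log2 CPM crossed 0 for C1r (-0.23 to 0.064), C1s (-0.054 to 0.20), Serping1 (-0.26 to 0.13) and C3ar1 (-0.34 to 0.17) with chemotherapy. With diet they did for C1qb (-0.19 to 0.11), C1qc (-0.15 to 0.062), C1s (-0.16 to 0.16) and C3 (-0.30 to 0.66). For CHEMO FO against TUMOUR STD they did for C1r (-0.061 to 0.26), C1s (-0.10 to 0.27) and Serping1 (-0.071 to 0.33). The exact permutation p of Cd59 fell below 0.05 without TUMOUR STD replicate 8 (0.0238, chemotherapy) and with CHEMO STD replicates 1 and 2 both left out (0.0238, chemotherapy, and 0.0357, diet).

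Of the log2 changes of the members and Fcna, 104 of 117, 99 of 116 and 107 of 117 kept direction and side of the thresholds in the 3 comparisons under settings other than leaving out 1 library. C3 could not be fitted where it missed the filter. No paired analysis was made, because the paper describes random assignment of the rats to separate arms and no label pairs them. At 3 to 38 counts per library for C3ar1 and 0 to 26 for C3 outside CHEMO FO replicate 18, depth limits both.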
